A study of Rattus norvegicus with 11 samples.

Results

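Transcript levels were compared between rat hippocampal neurons that expressed an exogenous wild-type H1.4, a linker histone, in 4 libraries (called WT H1.4) and neurons that expressed GFP, the control, in 3 libraries. These are the 7 libraries that the labels put in either group, of 11 in the series, and all genes in them were used. The neurons were primary cultures from CD (Sprague Dawley) IGS rats, taken at day 7 in vitro, and polyadenylated RNA was sequenced. The other 4 libraries came from neurons expressing H1.4 CFT, a mutant with a frameshifted C-terminal tail, and served here to estimate the spread between replicates and as values for comparison. Both groups compared carry an exogenous gene. The vector, its promoter, the amount of protein made, the species of the H1.4 sequence and the share of cells that expressed it are not given in the sources used here. The labels number the WT H1.4 libraries 1 to 4 (WT 1 to WT 4) and the GFP libraries 2 to 4 (GFP 2 to GFP 4), and the design text calls them biological replicates. Whether replicates came from separate dissections is not stated, so p-values measure the spread between these cultures.

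Linker histones sit on the nucleosome where DNA enters and leaves it, and their long, positively charged C-terminal tail holds the linker DNA and helps chromatin to fold. H1.4 is one of the somatic subtypes whose genes lie in the replication-dependent histone clusters, while H1.0 accumulates in cells that have stopped dividing. Hippocampal cultures at this age hold young excitatory neurons, a minority of GABAergic interneurons and some glia, so a change in bulk RNA can come from any of these. In bulk RNA, fewer cells of a type and less RNA per cell cannot be told apart.

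Depth, as the total count over genes, was 14205621 to 18846492 reads in the WT H1.4 libraries and 12070941 to 16923850 in the GFP libraries. A level is a CPM value, the count relative to a library size corrected by the trimmed mean of M-values (TMM), printed with mean ± SD over 4 and 3 libraries. The libraries were neuronal by their markers. All 20 pan-neuronal genes were measured, with a summed level of 11933 to 12160 CPM in WT H1.4 and 11522 to 12016 CPM in GFP. Isl1, Hoxa5 and Hoxb3, which mark motor or hindbrain and spinal neurons, had 0 counts in all 7 libraries, which allows at most 3 counts in a library. They were the only 3 without a count among 18 markers of neurons of other brain regions, of which 9 were high enough to test. The summed level of these 18 markers was 84.2 to 93.9 CPM in WT H1.4 and 83.3 to 89.1 CPM in GFP. The summed markers of microglia ran from 51.1 to 66.7 CPM in WT H1.4 and from 49.7 to 59.5 CPM in GFP, and those of red blood cells were below 1 CPM in every library. Reads that did not align were 0.895 ± 0.0476% in WT H1.4 and 1.65 ± 0.247% in GFP, with no overlap (exact two-sided permutation p = 0.0286, the smallest that 35 allocations can give, and 0.171 after Benjamini-Hochberg adjustment over 9 measures). The part of this difference in the results was not tested.

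Few genes differed between WT H1.4 and GFP in the fit of all libraries, and most of these by little. The number depended on the libraries and the fit, as given below. Of 17294 genes tested, 163 (0.943%) differed between WT H1.4 and GFP in edgeR's quasi-likelihood test at a Benjamini-Hochberg adjusted p under 0.05. Of these, 75 were higher in WT H1.4 (0.434% of genes tested) and 88 were lower (0.509%). In all 163 the values of the groups did not overlap, which was also so for 1087 (6.29%) of all genes tested with WT H1.4 above and 1027 (5.94%) with WT H1.4 below. The median size of the called changes was 0.35 on the log2 scale. Only 1 of the genes that rose and 7 of those that fell changed by at least 2-fold. Over all genes tested the median log2 fold change was -0.0011, and the values from the 5th to the 95th percentile ran from -0.39 to 0.36.

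**Figure D1:**
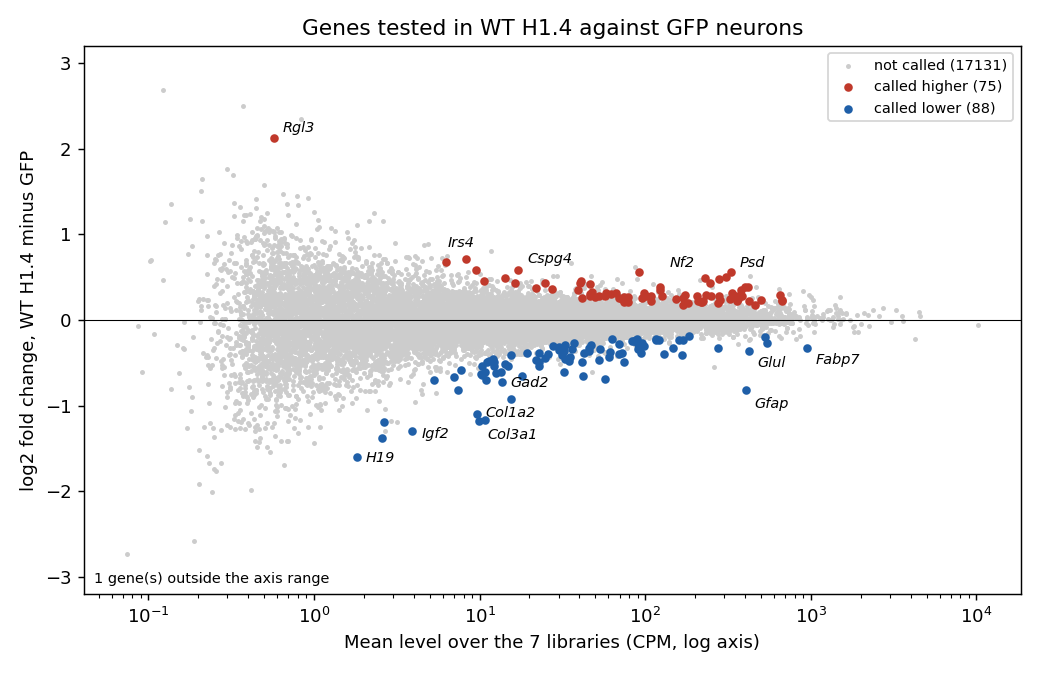
The plot shows log2 fold change (WT H1.4 minus GFP) against mean level over the 7 libraries (CPM, log axis) for each gene tested, with 75 genes called higher in red and 88 called lower in blue. The genes that rose lie mostly to the right, at high levels and small changes, while the larger falls, such as Igf2, H19 and the collagen genes, lie at low levels.

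Rises and falls differed in the level of the genes concerned. Among genes with a mean of at least 100 CPM, 41 rose and 15 fell, which was 2.2% of 2545 genes tested. Between 20 and 100 CPM 26 rose and 43 fell (1.08% of 6364), and between 5 and 20 CPM 7 rose and 26 fell (0.888% of 3717). Between 1 and 5 CPM 0 rose and 4 fell of 2869 tested. The gene that rose below 1 CPM was Rgl3, a guanine nucleotide exchange factor of the Ral pathway, at 0.859 ± 0.179 CPM in WT H1.4 and 0.192 ± 0.0543 CPM in GFP (log2 fold change 2.13, SE 0.511, adjusted p = 0.0494; 0.279 without GFP 4). Rgl3 lies below the level set for named genes, and it missed the threshold in every fit that left out 1 library. The median fold of the called genes was 2.53 between 1 and 5 CPM and 1.21 at 100 CPM or more.

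The number of calls depended on single GFP libraries. It was 44 without GFP 3 and 45 without GFP 4, and 306 without GFP 2. Without any 1 of the WT H1.4 libraries it ran from 84 (without WT 4) to 105 (without WT 1), with 91 without WT 2 and 103 without WT 3. In none of the 21 other settings tried did a called gene change direction. In the 7 fits that left out a library, 33 genes were called each time, 10 higher and 23 lower. Of 53 called genes that the naming rule picks, 32 missed the threshold without GFP 3, 34 without GFP 4, 3 without GFP 2, and between 16 and 22 without each WT H1.4 library. Further adjusted p-values in brackets are those without the library named.

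The sequences before the starts of 4 called genes are shown because linker histones act on chromatin. Of these genes 2 fell and 2 rose. They are examples and not a ranking, and the call of Gad2 was lost in 4 fits that left out 1 library. Each is the 250 bases upstream of the annotated start in RefSeq on the GRCr8 build, 5′ to 3′ on the strand of the gene, with CG dinucleotides in capitals. Gfap lies on the minus strand (chr10:88361662-88361911), Gad2 on the plus strand (chr17:89671468-89671717), Nf2 on the minus strand (chr14:83934152-83934401) and Psd on the minus strand (chr1:255129554-255129803).
Gfap: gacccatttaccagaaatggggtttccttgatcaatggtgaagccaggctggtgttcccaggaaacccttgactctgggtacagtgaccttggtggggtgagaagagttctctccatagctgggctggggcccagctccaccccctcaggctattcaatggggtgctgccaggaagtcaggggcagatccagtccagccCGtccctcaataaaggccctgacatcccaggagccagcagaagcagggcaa
Gad2: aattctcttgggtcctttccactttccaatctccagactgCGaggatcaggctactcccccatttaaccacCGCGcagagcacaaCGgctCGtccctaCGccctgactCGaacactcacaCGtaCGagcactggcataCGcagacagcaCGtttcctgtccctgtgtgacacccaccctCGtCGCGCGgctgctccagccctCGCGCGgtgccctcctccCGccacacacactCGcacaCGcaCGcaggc
Nf2: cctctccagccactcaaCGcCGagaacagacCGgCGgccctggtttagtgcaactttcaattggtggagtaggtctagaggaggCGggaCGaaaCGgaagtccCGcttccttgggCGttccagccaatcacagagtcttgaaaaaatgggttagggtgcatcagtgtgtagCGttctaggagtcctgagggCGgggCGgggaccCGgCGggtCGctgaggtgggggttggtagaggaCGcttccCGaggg
Psd: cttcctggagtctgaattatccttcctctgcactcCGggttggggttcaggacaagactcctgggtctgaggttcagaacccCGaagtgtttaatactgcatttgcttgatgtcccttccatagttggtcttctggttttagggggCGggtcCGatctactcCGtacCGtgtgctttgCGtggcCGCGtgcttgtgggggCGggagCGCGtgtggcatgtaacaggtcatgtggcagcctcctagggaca
The Gfap window held 1 CG, the Gad2 window 22, the Nf2 window 17 and the Psd window 12. RefSeq promoters matched 64 of the 88 genes that fell, 62 of the 75 that rose and 12585 of the 17294 tested. In these promoters, whose windows are longer than those printed, the median CG count was 15, 24 and 19 in that order. Among genes of at least 100 CPM it was 12 in 13 promoters of genes that fell. It was 24 in 31 promoters of genes that rose, and 25 in 2001 promoters of all genes tested at that level. These differences in CG count were not tested.

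Of 3 linker histone genes tested, H1f2 and H1f0 fell and 0 rose, against 0.509% of all genes called lower. H1f2, a replication-dependent linker histone, stood at 49.0, 41.9, 50.6 and 39.3 CPM in WT 1 to WT 4 and at 55.4, 65.8 and 67.1 CPM in GFP 2 to GFP 4. Every WT H1.4 library was below every GFP library (log2 fold change -0.47, SE 0.092, adjusted p = 0.0171). H1f0, which encodes H1.0, had 83.6, 76.4, 83.4 and 84.1 CPM in WT H1.4 and 91.4, 98.9 and 99.2 CPM in GFP, again with no overlap (log2 fold change -0.24, SE 0.050, adjusted p = 0.0232). When GFP 4 was left out the adjusted p rose to 0.168 for H1f2 and 0.19 for H1f0, and neither gene passed when GFP 3 or WT 2 was left out. H1f0 also missed the threshold in the fits that lacked WT 3 or WT 4. H1f10 was at 63.5 ± 5.40 and 60.7 ± 1.60 CPM, with overlapping groups (log2 fold change 0.06, SE 0.063, adjusted p = 0.761). The median log2 fold change of the 3 linker histone genes tested was -0.24. The span of H1f2 overlaps another histone gene, H4cl1, whose reads cannot be separated from it without knowing the strand setting of the counting.

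The rat H1f4 gene itself was too low to test. It had 4, 3, 1 and 5 counts in WT 1 to WT 4 and 2, 0 and 2 counts in GFP 2 to GFP 4, or 13 counts against 4. Replication-dependent histone transcripts mostly lack a poly(A) tail, and a construct of another species or codon use need not map to the rat gene, so these counts do not check the labels. The first of these limits holds for H1f2 too. Of the remaining linker histone genes, H1f1, H1f5, H1f6 and H1f8 had between 2 and 29 counts summed over WT H1.4 and H1f7 had 0 in every library. None of the 9 core and variant histone genes tested was called. The same held for the 39 histone chaperone and chromatin remodeller genes and the 34 genes of heterochromatin and Polycomb, with median log2 fold changes of -0.12, 0.0061 and 0.047.

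Markers of astrocytes and radial glia held more falling genes than any other list. Of 21 tested, 9 fell and 0 rose, against 0.509% of all genes called lower. The other 12 did not pass, and the median of the list was -0.26. Every WT H1.4 library was below every GFP library in 14 of the 21, against 5.94% of all genes. The summed level of the list was 3796 to 3938 CPM in WT H1.4 and 4563 to 4822 CPM in GFP. Leaving out 1 library gave between 6 (without GFP 3 or GFP 4) and 10 falling markers (without GFP 2).

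Gfap, the intermediate filament protein of astrocytes, changed most among these markers. It was at 292, 329, 302 and 296 CPM in WT 1 to WT 4 and at 489.6, 569.8 and 550.5 CPM in GFP 2 to GFP 4. The lowest GFP library was well above the highest WT H1.4 library, and the fall was 1.76-fold (log2 fold change -0.82, SE 0.069, adjusted p = 5.21e-05). Acsbg1, an acyl-CoA synthetase, had 25.1, 25.1, 29.4 and 26.1 CPM against 38.5, 41.6 and 40.6 CPM. Its groups were equally separate (log2 fold change -0.60, SE 0.070, adjusted p = 0.000132).

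The other astrocyte genes that fell did so by smaller amounts. Aqp4, the water channel of astrocyte endfeet, was at 138, 142, 156 and 153 CPM in WT H1.4 and 181, 199 and 205 CPM in GFP (log2 fold change -0.40, adjusted p = 0.00717; 0.0833 without GFP 4). Glul, the glutamine synthetase that clears glutamate, was at 350.6, 372, 385 and 396 CPM against 470.1, 480.1 and 499 CPM (-0.36, adjusted p = 0.00118). Fabp7, the fatty acid binding protein of radial glia, was at 895, 901, 812 and 809 CPM against 1018, 1082 and 1108 CPM (-0.32, adjusted p = 0.00140). In each of these genes all WT H1.4 libraries lay below all GFP libraries. Mlc1 (log2 fold change -0.40), the connexin gene Gja1 (-0.28), the growth factor receptor gene Fgfr3 (-0.26; adjusted p = 0.124 without GFP 3) and the glutamate transporter gene Slc1a3 (-0.20) fell as well. Slc1a3, with an adjusted p of 0.0421, was called only without GFP 2 among the fits that left out a library, with a value of 0.325 without GFP 4 and of 0.0733 or more in every other such fit.

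Not every astrocyte marker was lower. Slc1a2, the main glutamate transporter of mature astrocytes, was at 124 ± 5.28 CPM in WT H1.4 and 124 ± 8.94 CPM in GFP (log2 fold change 0.00, SE 0.060, adjusted p = 0.997). Aldoc, the aldolase of astrocytes, and Vim, vimentin, had log2 fold changes of 0.05 and -0.03 with overlapping groups. Aldh1l1 (38.8 ± 5.49 against 58.9 ± 3.95 CPM, log2 fold change -0.60, adjusted p = 0.179) and S100b (51.8 ± 5.22 against 67.1 ± 7.42 CPM, -0.37, adjusted p = 0.0578) had separate groups but did not pass.

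Further genes with known glial expression fell, some of which lie outside the marker list and were picked after their values were seen. Stat3, a transcription factor of astrocyte differentiation and reactivity, was at 90.0 ± 2.42 CPM in WT H1.4 and 110 ± 3.35 CPM in GFP (log2 fold change -0.30, adjusted p = 0.00212). Ptn, the secreted growth factor pleiotrophin, was at 500.1, 507, 492 and 489.8 CPM against 578, 601 and 620.4 CPM (-0.27, adjusted p = 0.00140). Mt3, the metallothionein of brain, had a log2 fold change of -0.32 (adjusted p = 0.00203), and Gpr37l1, an orphan receptor of glia, of -0.70 (adjusted p = 0.0139; 0.0531 without WT 2, 0.086 without GFP 3 and 0.18 without GFP 4). Tlcd1, a membrane lipid protein gene, was at 5.53, 6.58, 4.69 and 5.46 CPM against 9.66, 9.40 and 10.2 CPM (-0.82, adjusted p = 0.00497, and 0.0553 without GFP 4).

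Several mitochondrial enzymes that break down amino acids, GABA or acetate were also among the genes that fell, again picked after their values were seen. Prodh1, proline dehydrogenase, was at 18.6, 20.6, 19.3 and 18.4 CPM in WT H1.4 and 26.4, 28.9 and 28.6 CPM in GFP (log2 fold change -0.54, SE 0.082, adjusted p = 0.00168). Aldh4a1, which takes the next step of proline breakdown, fell from 38.7 ± 4.74 to 28.2 ± 1.13 CPM (-0.45, adjusted p = 0.00333). Ivd, of leucine breakdown, had a log2 fold change of -0.39 (adjusted p = 0.00261), Abat, the GABA transaminase, of -0.37 (0.00203) and Acss1, the mitochondrial acetyl-CoA synthetase, of -0.49 (0.00203). Slc25a18, a mitochondrial glutamate carrier, was at 5.56 ± 0.346 CPM against 8.88 ± 0.673 CPM (-0.67, adjusted p = 0.00717; 0.0707 without GFP 3). In all of these genes the groups were separate.

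**Figure D2:**
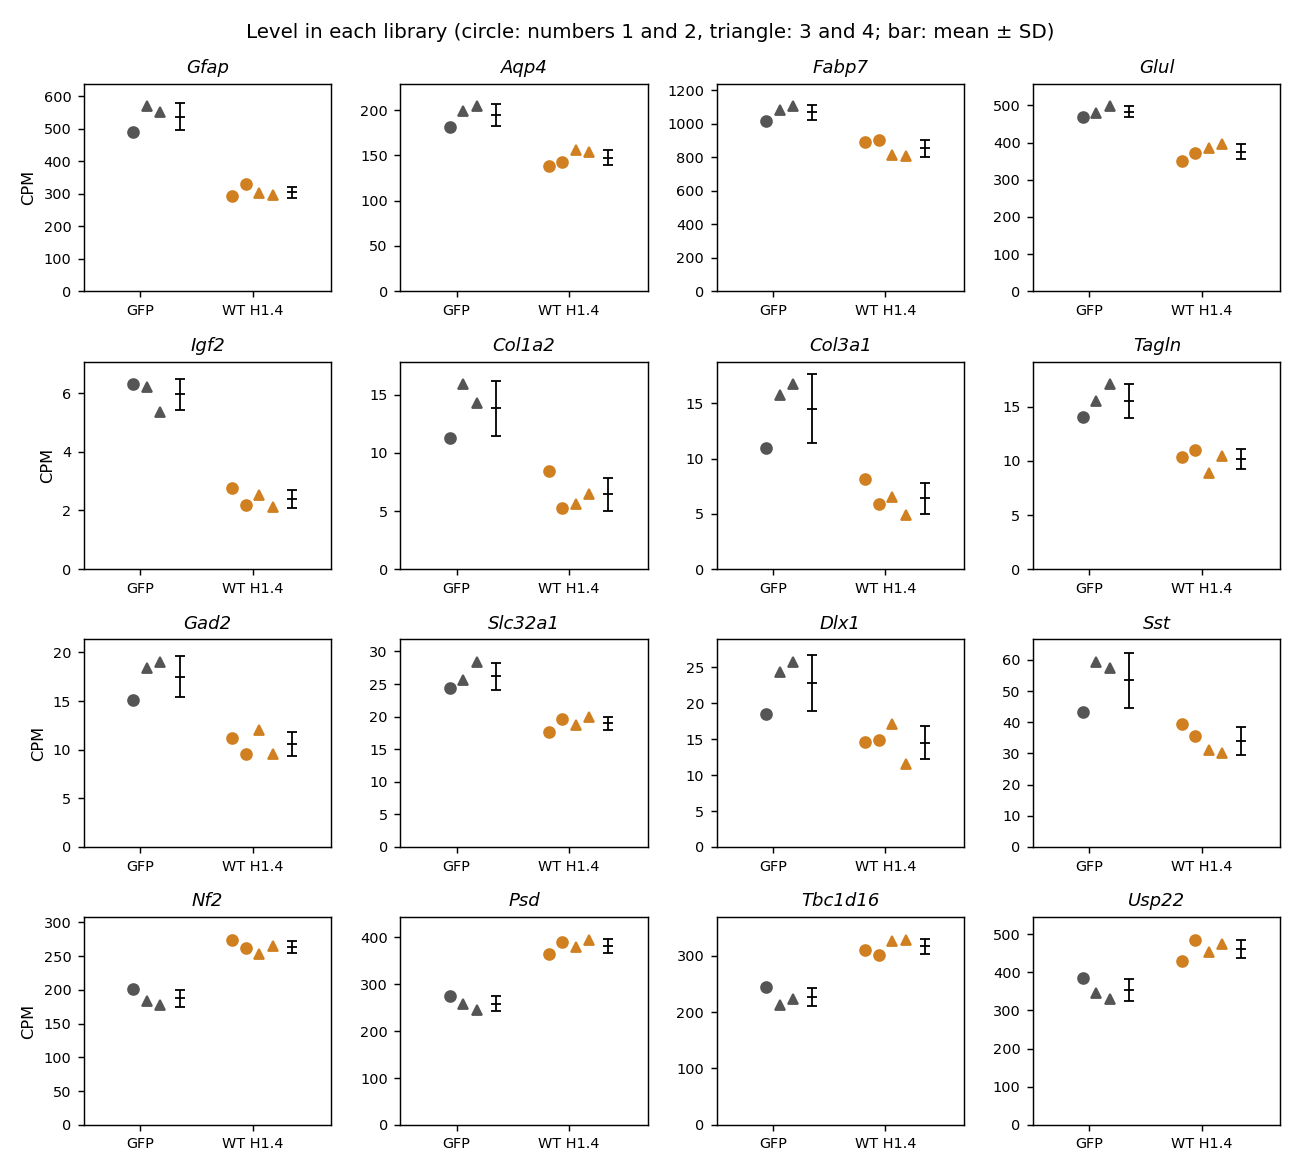
The panels show the level (CPM, from 0) of 16 genes in each GFP library (grey) and WT H1.4 library (orange), with circles for numbers 1 and 2, triangles for numbers 3 and 4, and bars for mean ± SD. In every panel the WT H1.4 points lie on one side of all GFP points, and GFP 2 is often the GFP library nearest to WT H1.4, as for Col1a2, Sst and Usp22.

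Several of the largest falls were in secreted growth factor and connective tissue genes at low levels. Igf2, the imprinted insulin-like growth factor, was at 2.76, 2.17, 2.54 and 2.12 CPM in WT 1 to WT 4 and 6.32, 6.21 and 5.35 CPM in GFP 2 to GFP 4. The fall was 2.46-fold with wide separation of the groups (log2 fold change -1.30, SE 0.188, adjusted p = 0.00140). H19, the imprinted noncoding RNA next to Igf2, was at 1.41, 0.579, 0.937 and 0.910 CPM against 2.47, 3.19 and 3.25 CPM. It lies below the level set for named genes and is given for its place beside Igf2 (log2 fold change -1.60, SE 0.277, adjusted p = 0.00503; 0.058 without GFP 4). The related Igf1 was at 1.86 ± 0.343 CPM and 3.82 ± 0.339 CPM and did not pass (-1.04, adjusted p = 0.0746). Both Igf2 and H19 overlap annotated loci of other names, LOC102548568 and LOC102548505. Without the strand setting of the counting their reads cannot be separated, as for Glul, Mlc1, Col1a1, Dlx1, Tll2, Pcdh11x, Cspg4, Draxin and Arhgap33, whose spans also overlap other genes.

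Among endothelial, mural and fibroblast markers, 4 of 15 tested fell and 0 rose, against 0.509% of all genes called lower, while the list median was -0.028. The 4 were the fibrillar collagens Col1a1, Col1a2 and Col3a1 and the smooth muscle protein transgelin, Tagln. Col1a2 was at 8.45, 5.28, 5.57 and 6.43 CPM in WT H1.4 and 11.3, 15.9 and 14.3 CPM in GFP (log2 fold change -1.09, SE 0.151, adjusted p = 0.00115). Col3a1 was at 8.18, 5.93, 6.56 and 4.92 CPM against 10.97, 15.8 and 16.8 CPM (-1.17, SE 0.166, adjusted p = 0.00141), and Col1a1 at 15.3, 10.4, 9.98 and 8.86 CPM against 25.9, 20.6 and 17.6 CPM (-0.93, SE 0.177, adjusted p = 0.0267; 0.122 without GFP 3). The groups did not overlap in any of the 3. Tagln fell from 15.6 ± 1.56 to 10.2 ± 0.905 CPM (-0.62, SE 0.118, adjusted p = 0.0101; 0.141 without GFP 4).

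Other fibroblast and mural genes did not pass. Dcn, decorin, was at 18.5 ± 2.87 CPM in WT H1.4 and 20.4 ± 2.45 CPM in GFP, and Lum, lumican, at 6.07 ± 0.881 and 5.98 ± 1.497 CPM. Pdgfrb, the receptor of mural cells, was at 13.02 ± 0.644 and 13.3 ± 2.18 CPM. Acta2, smooth muscle actin, was at 1.31 CPM in GFP 2 but 5.12 and 6.37 CPM in GFP 3 and GFP 4, against 1.16 to 2.37 CPM in WT H1.4 (adjusted p = 0.534). Without GFP 3 only 2 members of the list passed. Of the wider list of 34 collagen and matrix genes, the same 3 collagens fell and Vcan, the proteoglycan versican, rose from 254 ± 4.75 to 293 ± 11.5 CPM (0.20, adjusted p = 0.0480). Over all genes tested 0.509% were called lower and 0.434% higher. Vcan passed only without GFP 2 among the fits that left out a library, with an adjusted p of 0.252 without GFP 4 and 0.247 without GFP 3.

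Some genes of inhibitory interneurons fell in WT H1.4. Of 23 tested, 7 fell and 0 rose, against 0.509% of all genes called lower, 16 did not pass, and the median log2 fold change was -0.21. The summed level was 881 to 935 CPM in WT H1.4 and 1002 to 1066 CPM in GFP. Gad1 and Gad2 encode the enzymes that make GABA, Slc32a1 loads it into vesicles, Dlx1 is a transcription factor of the interneuron lineage, and Sst is the peptide of one interneuron class. These 5 were among the 7 that fell.

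Gad2 was at 11.2, 9.55, 12.1 and 9.59 CPM in WT 1 to WT 4 and 15.1, 18.4 and 19.1 CPM in GFP 2 to GFP 4 (log2 fold change -0.72, SE 0.141, adjusted p = 0.0158). Slc32a1 was at 17.7, 19.6, 18.8 and 19.9 CPM against 24.3, 25.7 and 28.4 CPM (-0.47, SE 0.083, adjusted p = 0.00592). Dlx1 was at 14.6, 14.8, 17.2 and 11.6 CPM against 18.5, 24.3 and 25.8 CPM (-0.65, SE 0.138, adjusted p = 0.0324). In each of them the groups were separate, and GFP 2 was the lowest of the GFP libraries. Sst was at 39.5, 35.5, 31.0 and 30.0 CPM against 43.4, 59.4 and 57.5 CPM (-0.65, SE 0.134, adjusted p = 0.0489), and Gad1 at 33.4, 28.7, 27.5 and 28.3 CPM against 35.2, 43.2 and 44.7 CPM (-0.48, SE 0.104, adjusted p = 0.0395). Here GFP 2 lay close to the highest WT H1.4 library.

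The calls in this group rested on few libraries. Leaving out GFP 4 left 0 of the 7, leaving out GFP 3 or WT 4 left 1, and the number was 2 without WT 2, 3 without WT 3 and 5 without WT 1 or GFP 2. Without GFP 4 the adjusted p was 0.166 for Gad2, 0.103 for Slc32a1, 0.259 for Dlx1, 0.279 for Gad1 and 0.274 for Sst. Sst also missed the threshold with a term for number pairs (adjusted p = 0.0591) and in limma-voom (0.0596), as did Gad1 in limma-voom (0.0576). Among members that did not pass, Npy was at 7.08 ± 0.768 and 10.9 ± 2.49 CPM, Reln at 164 ± 5.01 and 186 ± 2.30 CPM, and Cck at 87.3 ± 4.18 and 78.8 ± 4.13 CPM in WT H1.4 and GFP. The excitatory list had 0 of 19 members called and a median of -0.027. Its vesicular glutamate transporter Slc17a7 was at 334 ± 17.5 CPM against 407 ± 37.1 CPM (log2 fold change -0.28, adjusted p = 0.15).

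Some secreted, receptor and activity-linked genes of neurons also fell, of which Nxph3 and Grik3 were picked after their values were seen. Vgf, a secreted peptide precursor induced by activity and growth factors, was at 61.5, 62.2, 60.9 and 68.9 CPM in WT H1.4 and 79.5, 95.6 and 90.8 CPM in GFP (log2 fold change -0.48, SE 0.067, adjusted p = 0.00115). Nxph3, a secreted ligand of neurexins, had 19.4 ± 0.676 against 27.3 ± 1.77 CPM (-0.49, adjusted p = 0.00447). Grik3, a kainate receptor subunit, had 83.2 ± 2.37 against 108 ± 7.36 CPM (-0.38, adjusted p = 0.00281). The groups were separate in all of these. The somatostatin receptor gene Sstr3 was at 1.57, 1.74, 2.15 and 1.33 CPM against 3.27, 4.20 and 4.21 CPM (-1.19, SE 0.255, adjusted p = 0.0248; 0.19 without GFP 4).

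Egr3, an early gene of synaptic activity, was the 1 member that fell of 30 immediate early and activity genes, against 0.509% of all genes called lower. Egr3 was at 10.3 ± 0.795 against 14.9 ± 1.76 CPM (log2 fold change -0.54, adjusted p = 0.0320, and 0.297 without GFP 4). The list had 23 negative and 7 positive values and a median of -0.15. Of 23 neuropeptide and secreted factor genes, Igf2, Vgf and Sst, all described above, fell and 0 rose, against 0.509% of all genes called lower. Pcdh11x, a cell adhesion protein of the protocadherin family, was at 50.5, 46.7, 42.7 and 40.7 CPM against 63.4, 81.3 and 74.1 CPM (-0.69, SE 0.119, adjusted p = 0.0195; 0.13 without GFP 4). Tll2, a tolloid-like metalloprotease, was at 4.16 ± 0.125 and 6.76 ± 0.449 CPM (-0.70, adjusted p = 0.0355), and Trnp was at 7.05 ± 0.895 and 15.7 ± 2.39 CPM (-1.17, adjusted p = 0.0258). Tll2 and Trnp missed the threshold in every fit that left out 1 library, with adjusted p up to 0.18 and 0.17.

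The genes that rose were mostly moderately to highly expressed and changed by less than 1.5-fold. Nf2, which encodes merlin, a membrane-linked tumour suppressor that acts on the Hippo pathway, was at 275, 261, 253 and 265 CPM in WT 1 to WT 4 and 202, 183 and 177 CPM in GFP 2 to GFP 4. Every WT H1.4 library was above every GFP library (log2 fold change 0.49, SE 0.058, adjusted p = 0.000167). Tbc1d16, a GTPase-activating protein for Rab proteins, was at 309, 301, 325 and 328 CPM against 245, 212 and 223 CPM (0.48, SE 0.054, adjusted p = 0.000108). Psd, an exchange factor for the ARF6 GTPase of dendrites, was at 364, 390.3, 379 and 396 CPM against 275, 257 and 245 CPM (0.56, SE 0.072, adjusted p = 0.00140). In these 3 genes too the groups were far apart, and all 3 were called in each of the 21 other settings.

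Tfrc, the transferrin receptor that takes up iron, rose from 105 ± 6.77 to 138 ± 4.88 CPM (log2 fold change 0.39, adjusted p = 0.00140). Agap3 (0.28, adjusted p = 0.00150), of the ARF-directed GTPase-activating proteins, and Cdk19 (0.31, adjusted p = 0.00224), a kinase of the Mediator complex, rose too. Usp22, the ubiquitin protease of the SAGA coactivator complex that acts on histone H2B, was at 430, 486, 454 and 473 CPM in WT H1.4 and 386, 346 and 329 CPM in GFP (0.38, SE 0.068, adjusted p = 0.0101; 0.0898 without GFP 3 and 0.101 without GFP 4). Map4, a microtubule-associated protein, rose from 329.9 ± 29.0 to 420 ± 13.7 CPM (0.35, adjusted p = 0.0126; 0.125 without GFP 4) and was chosen after its values were seen. Myo5a, a myosin motor of vesicle and RNA transport, rose from 614 ± 11.9 to 719 ± 10.3 CPM (0.23, adjusted p = 0.0169; 0.142 without GFP 3 and 0.122 without GFP 4).

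Among genes of lower level, Pola2, a subunit of DNA polymerase alpha, was at 11.4, 11.2, 10.4 and 11.2 CPM against 6.97, 7.72 and 7.39 CPM (log2 fold change 0.58, SE 0.109, adjusted p = 0.00930; 0.0747 without GFP 4). Irs4, an adaptor of insulin receptor signalling, rose from 6.07 ± 1.18 to 9.94 ± 1.32 CPM (0.71, adjusted p = 0.0205; 0.228 without GFP 4). Cspg4, the NG2 proteoglycan of oligodendrocyte precursors and pericytes, was at 19.6, 20.5, 21.6 and 18.3 CPM against 12.9, 12.8 and 14.3 CPM (0.58, SE 0.095, adjusted p = 0.00306). It was the only 1 of 11 oligodendrocyte lineage markers tested that was called, against 0.943% of all genes. The list median was -0.010, and the summed level overlapped between the groups (489 to 587 CPM and 484 to 596 CPM).

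Further rises were called on narrower margins. Kctd13, an adaptor of a cullin ubiquitin ligase (log2 fold change 0.56, adjusted p = 0.0459), Arhgap33, a GTPase-activating protein (0.51, 0.0339), Unc5b, a netrin receptor (0.49, 0.0199), Zfp51, a zinc finger protein (0.46, 0.0489), Frmd4b, a scaffold protein (0.43, 0.0413), and Wnt8b, a Wnt ligand of the medial cortex and hippocampus (0.43, 0.0132), were each higher in all WT H1.4 libraries than in all GFP libraries. None of these 6 passed without GFP 3 or without GFP 4, and without GFP 4 the adjusted p was 0.266 for Kctd13, 0.18 for Arhgap33, 0.205 for Unc5b, 0.361 for Zfp51, 0.239 for Frmd4b and 0.149 for Wnt8b. Each also missed the threshold without at least 1 WT H1.4 library.

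Genes of young neurons had mostly higher values in WT H1.4. Of 17 tested, Sox11 and Draxin rose and 0 fell, against 0.434% of all genes called higher. Values were positive for 16 of the 17, with a median of 0.10, against a median of -0.0011 over all genes tested. All WT H1.4 libraries were above all GFP libraries in 12 of the 17, against 6.29% of all genes, and the summed level was 21084 to 21591 CPM against 19799 to 20504 CPM. Sox11, a transcription factor of newborn neurons, was at 249, 245, 255 and 267 CPM in WT H1.4 and 217, 209.8 and 195 CPM in GFP (log2 fold change 0.29, SE 0.054, adjusted p = 0.00802). Draxin, a secreted repellent of growing axons, was at 381 ± 22.0 and 312 ± 24.8 CPM (0.29, adjusted p = 0.0101). Dcx, doublecortin, was at 1477 ± 26.3 and 1310.1 ± 65.2 CPM and did not pass (0.17, adjusted p = 0.108). Neither Sox11 nor Draxin passed without GFP 3 (adjusted p = 0.0574 and 0.0898) or without GFP 4 (0.122 and 0.149). Further genes of growing neurites, Islr2 (0.29, adjusted p = 0.00565) and Nrep (0.24, adjusted p = 0.00497), rose, and passed in neither of those fits, with adjusted p up to 0.0928 and 0.0606. Of 38 axon guidance genes 1 rose, against 0.434% of all genes called higher. This was Sema5a (0.33, adjusted p = 0.0174, and 0.18 without GFP 4).

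**Figure D3:**
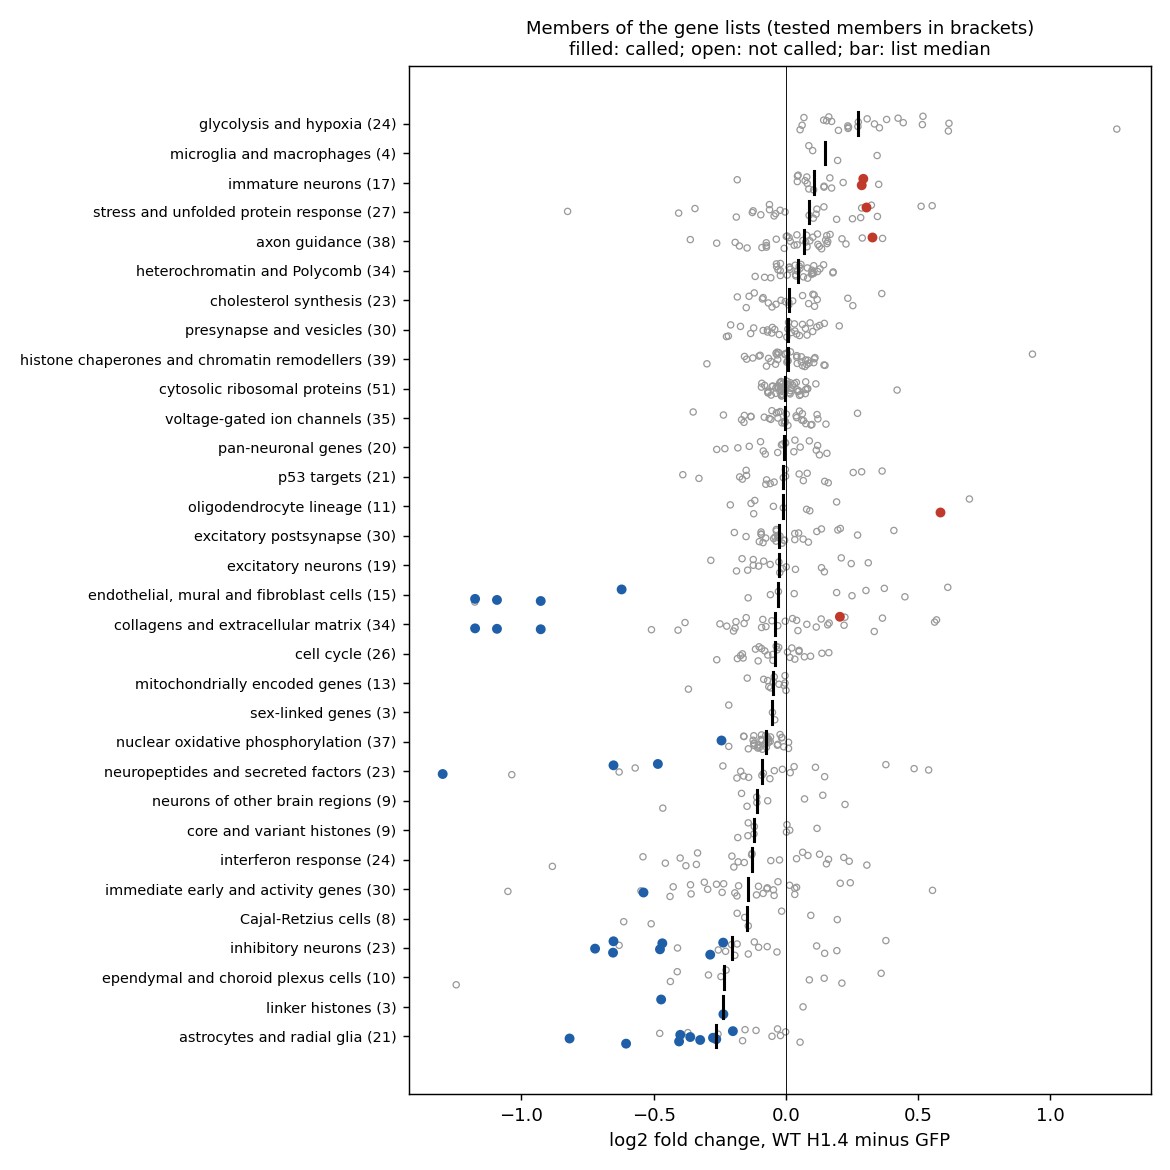
The plot shows log2 fold change (WT H1.4 minus GFP) of the tested members of 32 gene lists, ordered by list median (bar), with called members filled in red or blue and the others open. Filled blue points gather in the astrocyte and inhibitory lists, and the glycolysis list lies wholly to the right of 0 with no filled point.

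Glycolysis and hypoxia genes were higher by value but none was called. All 24 tested had positive log2 fold changes with a median of 0.27, and in 7 every WT H1.4 library was above every GFP library, against 6.29% of all genes. Gapdh was at 1611, 1670.5, 1611 and 1566 CPM in WT H1.4 and 1414, 1365 and 1232 CPM in GFP (log2 fold change 0.27, SE 0.116, adjusted p = 0.407). Pgk1 was at 516 ± 22.9 and 397 ± 67.6 CPM (0.38, SE 0.218, adjusted p = 0.569). The summed level of the list was 9178 to 9640 CPM in WT H1.4, while GFP 2, GFP 3 and GFP 4 had 8824, 7907 and 6884 CPM. The spread was thus among the GFP libraries, with GFP 2 nearest to WT H1.4.

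Genes of the respiratory chain had mostly lower values in WT H1.4. Of 37 nuclear-encoded subunits 35 had negative values, with a median of -0.076, and 1 was called lower, against 0.509% of all genes. This was the complex I subunit Ndufs1 (79.0 ± 1.30 against 93.5 ± 5.38 CPM, log2 fold change -0.24, adjusted p = 0.0339, and 0.266 without GFP 4). The summed level was 4450 to 4564 CPM in WT H1.4 and 4473, 4942 and 4981 CPM in GFP 2 to GFP 4, so GFP 2 lay within the range of WT H1.4. Uqcr11, a complex III subunit gene outside this list, was also called lower (log2 fold change -0.24). It missed the threshold in 6 fits that left out 1 library, with an adjusted p of 0.368 without GFP 3. None of the 13 mitochondrially encoded genes was called (median -0.047), and their share of gene counts was 2.74 ± 0.140% against 2.85 ± 0.0888% (exact two-sided permutation p = 0.314).

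Most other gene groups of neurons and of cell state held no called gene in the fit of all libraries. None was called among 30 excitatory postsynaptic, 30 presynaptic and vesicle, 35 voltage-gated ion channel, 20 pan-neuronal, 23 cholesterol synthesis, 51 cytosolic ribosomal protein, 24 interferon response, 21 p53 target and 26 cell cycle genes. Medians lay between -0.13, for interferon response genes, and 0.011, for cholesterol synthesis. With numbers 3 and 4 alone, a fit described below, 5.5% of all genes were called higher and 3.75% lower. Higher and lower calls there were 6 and 2 for postsynaptic, 6 and 4 for presynaptic and 8 and 1 for ion channel genes. They were 5 and 3 for pan-neuronal, 6 and 3 for cholesterol, 0 and 7 for ribosomal and 1 and 2 for interferon genes. For p53 targets they were 2 and 0, for cell cycle genes 0 and 0, and for the 19 excitatory neuron genes 3 and 4. Over all libraries, 1 of 27 stress and unfolded protein response genes rose, against 0.434% of all genes called higher. This was Shmt2, the mitochondrial serine hydroxymethyltransferase (67.8 ± 4.49 against 55.1 ± 3.69 CPM, log2 fold change 0.30, adjusted p = 0.0193, and 0.22 without GFP 4). Among markers of other cells, 0 of 4 microglial, 0 of 10 ependymal and choroid plexus, 0 of 8 Cajal-Retzius and 0 of 9 markers of neurons of other regions were called. The summed Cajal-Retzius markers were 251 to 265 CPM in WT H1.4 and 279 to 292 CPM in GFP.

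The libraries numbered 3 and 4 resembled each other within both groups, as did WT 1 and WT 2, and no label names a batch. The variance between libraries of a group was 2.08 to 2.22 times that of counting within these number pairs and 3.67 to 5.51 times across them. The comparison was therefore made within each pair of numbers, on separate libraries. The p-values of these fits measure the spread within number pairs and leave out the larger spread across them. With numbers 3 and 4 alone 1596 genes were called (9.25% of those tested), and with numbers 1 and 2 alone, where GFP 2 is the only control and its spread is taken from the other groups, 215 (1.21%). Of 17073 genes tested in both, 113 were called in both in the same direction, 52 higher and 61 lower. This was 52.6% of the calls of numbers 1 and 2 and 7.09% of those of numbers 3 and 4. Of the calls of numbers 1 and 2, 87% had the same sign in numbers 3 and 4, and 67.9% of the calls of numbers 3 and 4 had it in numbers 1 and 2, against 54.6% of all genes.

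The groups described above differed in how they stood within the number pairs. Over all genes tested, 0.567% were called higher and 0.639% lower in numbers 1 and 2, and 5.5% higher and 3.75% lower in numbers 3 and 4. Of 21 astrocyte markers, 10 were called lower and 0 higher in numbers 1 and 2, and 14 lower and 1 higher in numbers 3 and 4. Gfap had log2 fold changes of -0.66 and -0.90, Acsbg1 of -0.62 and -0.56 and Igf2 of -1.34 and -1.29. Those of the linker histone genes were -0.28 and -0.56 for H1f2 and -0.19 and -0.24 for H1f0. Inhibitory genes gave 0 calls in numbers 1 and 2 and 11 in numbers 3 and 4. Sst had values of -0.21 and -0.93 and Gad1 of -0.17 and -0.65, while Slc32a1 was similar in both (-0.40 and -0.49). Of 17 genes of young neurons 15 were positive in each pair, with medians of 0.090 and 0.13. In numbers 3 and 4, 11 of them were called higher and 0 lower. Of 38 axon guidance genes 16 were positive in numbers 1 and 2 (median -0.041) and 27 in numbers 3 and 4 (median 0.12). In numbers 3 and 4, 15 of these were called higher and 2 lower. For glycolysis and hypoxia 4 members were called higher in numbers 1 and 2, where 7 of 25 values were negative and the median was 0.081, and 13 in numbers 3 and 4, where all 24 were positive and the median was 0.36. Of endothelial, mural and fibroblast markers 1 was called higher and 1 lower in numbers 1 and 2, and 6 lower in numbers 3 and 4. Col1a2 (-0.68 and -1.33) and Col3a1 (-0.62 and -1.50) were not called in numbers 1 and 2, while Col1a1 was (-0.98). For nuclear respiratory chain genes 26 of 37 values were positive in numbers 1 and 2, while 36 were negative in numbers 3 and 4, where 18 were called lower. Of 13 mitochondrially encoded genes 9 were positive in numbers 1 and 2, with a median of 0.060. In numbers 3 and 4, 12 of them were negative, 7 were called lower and 0 higher, and the median was -0.16.

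**Figure D4:**
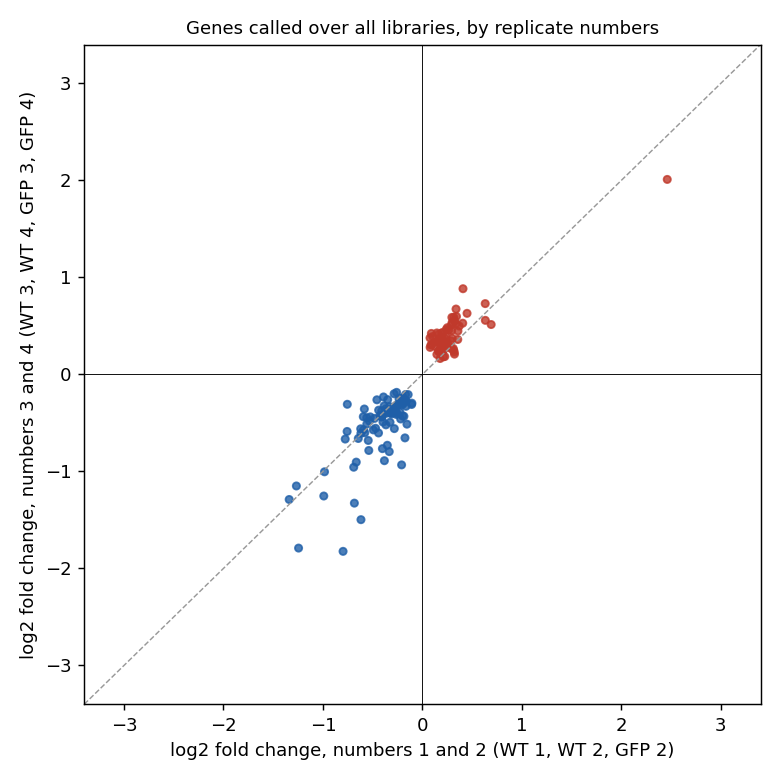
Each point is 1 of the 163 called genes, with its log2 fold change (WT H1.4 minus GFP) in numbers 1 and 2 on the x axis and in numbers 3 and 4 on the y axis, red for rises and blue for falls. All points lie in the quadrants of equal sign, which their selection over all libraries favours, and many lie farther from 0 on the y axis, as Sst does at -0.21 and -0.93.

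The H1.4 CFT libraries, which share the GFP controls, had the following levels for some of the genes named above, given as values without a test. Gfap was at 557 ± 51.5 CPM in H1.4 CFT, above WT H1.4 and close to GFP (537 ± 41.9 CPM). Igf2 was at 7.73 ± 1.56 CPM in H1.4 CFT, above the means of WT H1.4 (2.40 CPM) and GFP (5.96 CPM). Nf2 was at 170 ± 13.2 CPM, Tbc1d16 at 224 ± 11.8 CPM and Psd at 253 ± 28.4 CPM, all below the means of WT H1.4. The GFP means of these genes were 187, 226.5 and 259 CPM in that order. H1f2 was at 21.7 ± 1.90 CPM and H1f0 at 53.9 ± 0.474 CPM, both below the means of WT H1.4 and GFP. Gad2 was at 14.2 ± 2.83 CPM, between the means of WT H1.4 and GFP. Vgf was at 51.4 ± 3.44 CPM, Egr3 at 5.39 ± 0.676 CPM and Sstr3 at 0.769 ± 0.271 CPM, all below WT H1.4.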

How the data were processed

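Polyadenylated RNA of 11 libraries was sequenced, and the 7 libraries of WT H1.4 and GFP were compared. Per the submitters' processing notes, STAR 2.7.2b and HTSeq 0.10.0 were used with the mRatBN7.2 build. The deposited values are raw counts of reads per gene symbol, made by the authors, and were not normalized. Which annotation release was used, and whether counting took strand into account, is not given in the sources used here. Each file held 42172 genes and 5 summary entries of the counter, which were left out of library sizes and tests. Reads in no annotated feature were 45.2% to 46.0% of the total in WT H1.4 libraries and 45.3% to 45.9% in GFP libraries.

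Counts were fitted in R 4.3.3 with edgeR 4.0.16 (TMM scaling, robust quasi-likelihood test) over all 11 libraries with a term for group, after a low-count filter (filterByExpr, minimum count 10, minimum total 15) that 17294 of 29259 genes with a count passed. The spread was shared over the 3 groups, with a biological coefficient of variation of 7.02% and 8 residual degrees of freedom. The Benjamini-Hochberg adjustment ran over the 17294 genes, and called, rose and fell mean an adjusted p under 0.05. SE is the absolute log2 fold change divided by the square root of the F statistic. Whole-library measures were compared by exact permutation over 35 allocations. The script was tested on simulated counts.

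Genes named are the 12 largest rises and falls, the 8 smallest adjusted p and the 5 largest differences of level in each direction, among called genes of at least 2 CPM with a symbol and no overlap between groups, and up to 4 called members of each list by smallest p. A list with no called member gave up to 2 members as values. Other genes were chosen after their values were seen, also where this is not said beside them. A few genes picked by this rule are not reported here. The comparison, the gene lists and these rules were chosen with earlier results of these data known. The lists held 796 symbols, of which 31 had no match and 2 matched through a synonym. Other settings were RLE scaling, DESeq2 1.42.0, limma-voom (limma 3.58.1), no filter, a filter of 5 CPM in 3 libraries, a non-robust spread, thinning to the smallest library, a fit of the 2 groups alone, the replicate number as a block, a term for number pairs (1 and 2, 3 and 4), and each library left out. Fits within number ranges over 3 groups were added after seeing the data. Gene spans were looked up in RefSeq tables of GRCr8, a different build from that of the counts, used for names, neighbours and promoter sequences. Of 203 named or called genes 192 were found there, and 75 overlap another gene.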

Additional observations from a re-analysis of the deposited data

Results flagged for a closer look

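In 3 of 136 sets of 4 WT H1.4 values, 1 library stood far from the other 3 by Dixon's criterion, and chance alone gives about 1 in 20. Vgf, the secreted peptide precursor, was at 68.88 CPM in WT 4 and between 60.87 and 62.21 CPM in the others. H1f0, the gene of linker histone H1.0, was at 76.39 CPM in WT 2 and between 83.42 and 84.05 CPM in the others. The summed level of voltage-gated ion channel genes was 3129 CPM in WT 2 and between 3246 and 3268 CPM in the others. For Vgf the separate library was the WT H1.4 library nearest to GFP, while for H1f0 it was the farthest.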

How the results depend on the processing

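The number of genes called ran from 44 to 306 when single libraries were left out, against 163 with all, with 12 to 162 higher and 29 to 144 lower. The lowest counts came without GFP 3 (27.3% of calls higher) and GFP 4 (35.6%), against 46% with all libraries. DESeq2 called 268 genes (132 higher, 136 lower), the fit without a low-count filter 462 (247 and 215) and the fit of the groups compared alone 348 (172 and 176). A term for number pairs gave 404 (206 and 198). Numbers 3 and 4 alone gave 1534 in a fit of the groups compared (887 and 647) and 1596 with all groups (949 and 647), and numbers 2 to 4 alone 101 (46 and 55). RLE scaling, limma-voom, the stricter filter, the non-robust spread and thinning gave between 135 and 162 calls. Of the 163 genes 28 were called in all 21 settings and 0 changed sign; why the counts moved was not tested.

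Residual correlations between WT H1.4 and GFP libraries of equal number were 0.206, 0.113 and 0.0927 for numbers 2, 3 and 4. WT 3 went best with GFP 4 (0.158) and WT 4 with GFP 3 (0.131). Correlations were positive within number pairs (0.0927 to 0.224) and negative across them (-0.236 to -0.0995). Residuals are taken from the group mean, so these values are not independent. With the replicate block 248 genes were called (125 higher, 123 lower), 153 of them among the 163. Of the 53 named genes Zfp51, Sst and Vcan lost their calls with the block, Sst with the term for number pairs, and Zfp51, Frmd4b, Gad1, Sst and Vcan in limma-voom.

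Signs turned in small values that passed no test. With single libraries left out, the log2 fold change ran from -0.40 to 0.046 for Uty (0.046 without GFP 2), from -0.16 to 0.14 for Eif2s3y (0.081 without WT 3, 0.063 without WT 4, 0.14 without GFP 2) and from -0.11 (without GFP 2) to 0.69 for Csf1r. Csf1r came to -0.17 in numbers 3 and 4, and P2ry12 to -0.12 in numbers 1 and 2. The sex-linked gene Eif2s3y differed between number pairs in both groups. It was at 55.2 and 56.0 CPM in WT 1 and WT 2, against 33.0 and 34.5 CPM in WT 3 and WT 4. In GFP 2 it was at 56.5 CPM, against 40.3 and 40.8 CPM in GFP 3 and GFP 4. What this reflects was not tested. Genes detected after thinning to the smallest library were 21731 ± 135 in WT H1.4 and 22011 ± 46.7 in GFP, with no overlap. The exact two-sided permutation p was 0.0571, and 0.171 after adjustment. This difference stayed negative with each library left out, from -344 to -247. Without thinning, WT H1.4 minus GFP became 79.4, and it ran from -66.3 to 249 with single libraries left out. In percentage points it ran from -0.038 to 0.010 (without GFP 3) for ribosomal protein counts, from -0.11 (without GFP 3) to 0.19 for reads in no feature, with -0.076 without WT 1 and -0.016 without WT 2, and from -0.055 (without WT 2) to 0.093 for the share of the 50 highest genes, with -0.0061 without GFP 4. Depth limits what can be called at low levels, where 5 of 4668 genes under 5 CPM were called.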

Other observations

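Further genes called in edgeR's quasi-likelihood test are given by function, all grouped after their values were seen and each with WT H1.4 libraries on one side of all GFP libraries. Several act in neurites and synapses and were higher in WT H1.4. Atat1, which acetylates tubulin, was at 223 ± 2.84 CPM in WT H1.4 and 184 ± 11.9 CPM in GFP (log2 fold change 0.28, adjusted p = 0.00333), and Kif3b, a kinesin motor, at 188 ± 4.54 and 153 ± 7.71 CPM (0.29, adjusted p = 0.0207). Cnih2 (0.28, adjusted p = 0.00648) and Shisa7 (0.28, adjusted p = 0.00785), auxiliary proteins of AMPA and GABA-A receptors, and Rims3 (0.31, adjusted p = 0.0487), of the presynaptic active zone, rose as well. Lower were Kcnip1, an interacting protein of potassium channels (-0.53, adjusted p = 0.0126), Cacng5, of the AMPA receptor auxiliary proteins (-0.53, adjusted p = 0.0353), and Synpo, synaptopodin of dendritic spines (-0.48, adjusted p = 0.0335).

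Transporters and metal or lipid handling genes moved in either direction. The amino acid transporter Slc38a2 rose from 96.6 ± 3.52 to 117 ± 2.79 CPM (log2 fold change 0.28, adjusted p = 0.00497) and the zinc importer Slc39a10 from 107 ± 9.22 to 136 ± 1.85 CPM (0.35, adjusted p = 0.00497). The glutamine transporter Slc38a3 fell from 80.4 ± 6.03 to 61.3 ± 5.70 CPM (-0.39, adjusted p = 0.00930), and Mfsd2a, a lysolipid transporter, fell (-0.64, adjusted p = 0.0163). Of the selenoprotein genes called, Selenop (-0.63, adjusted p = 0.00503) and Selenot (-0.23, adjusted p = 0.0127) fell and Selenow rose (0.22, adjusted p = 0.0267). Ednrb, the endothelin receptor of glia, fell from 83.1 ± 9.29 to 63.8 ± 4.36 CPM (-0.39, adjusted p = 0.00503), and Dbi, a diazepam binding protein, from 313 ± 13.6 to 250.02 ± 19.2 CPM (-0.32, adjusted p = 0.00345).

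Some regulators of transcription were higher. Rai1 was at 222 ± 6.40 CPM in WT H1.4 and 190.4 ± 9.58 CPM in GFP (log2 fold change 0.23, adjusted p = 0.0153), Deaf1 at 109 ± 4.27 and 90.1 ± 3.32 CPM (0.28, adjusted p = 0.0158), and Zeb2 at 230.5 ± 9.78 and 199.6 ± 11.8 CPM (0.21, adjusted p = 0.0355). Ing1, a reader of histone methylation, also rose (0.28, adjusted p = 0.0153). Epas1, a hypoxia-inducible factor, fell from 52.0 ± 3.15 to 41.3 ± 2.65 CPM (-0.33, adjusted p = 0.0158), while Bnip3l (0.26, adjusted p = 0.0285) and Mxi1 (0.31, adjusted p = 0.0314), known hypoxia-responsive genes, rose. Each gene given in these groups of neurite, transport and transcription genes lost its call in at least 1 fit that left out a library. The highest adjusted p was 0.0503 for Atat1, 0.0574 for Cnih2, 0.0578 for Dbi, 0.0694 for Slc38a2 and 0.0764 for Slc39a10. It was 0.0872 for Ednrb, 0.0928 for Selenop and between 0.109 (Slc38a3) and 0.355 (Rims3) for the others.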
